A study of Homo sapiens with 12 samples.

Results

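NR4A1, NR4A2, KLF4, FOSL2 and FOSL1 are 5 transcription factor genes of the immediate early class, taken from 45320 genes counted in RNA-seq libraries labelled as Ishikawa cells, a line established from a human endometrial adenocarcinoma. They were picked by name because earlier results on these same libraries showed knockdown differences in opposite directions within the class, with 4 genes higher and FOSL1 lower. Their knockdown values are therefore given as a description, without a test, and support nothing. The hormone comparisons played no part in the choice and were tested. The cells carried a hairpin against ARID1A (shARID1A), the gene of a SWI/SNF remodeller subunit that binds DNA, or a control hairpin (shNC). In each arm they received 10 nM estradiol (E2) with 100 nM fulvestrant, which blocks and degrades the estrogen receptor, 10 nM E2 alone, or the vehicle DMSO, for 8 h. All 6 groups had been kept in medium free of phenol red with charcoal-stripped serum, and each group holds 2 libraries. The labels do not say whether these came from separate cultures, or how many hairpins or clones stand behind an arm. The p-values thus reflect only how far libraries differ from each other, perhaps for technical reasons, and knockdown cannot be told apart from any other difference between the lines.

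Immediate early genes are transcribed within minutes of a stimulus, without new protein synthesis, through factors such as CREB, SRF and MEF2 that are already present in the cell. NR4A1 and NR4A2 are orphan nuclear receptors without a classical hormone ligand that bind DNA as monomers or as heterodimers with RXR. KLF4 is a zinc finger factor that binds GC-rich and CACCC elements and is linked to epithelial differentiation and pluripotency. FOSL1 (Fra-1) and FOSL2 (Fra-2) are FOS relatives without the strong transactivation domain of FOS, and they bind AP-1 sites as dimers with JUN proteins. FOSL1 depends on sustained ERK signalling and is tied to invasive growth in many carcinomas.

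The libraries held 28810351 to 38657162 counts. Levels are given as CPM, counts scaled by TMM factors to a common library total. ARID1A, the targeted gene, had 53.8 to 61.7 CPM in the 6 shARID1A libraries and 109.9 to 123.3 CPM in the 6 shNC libraries, which in DMSO is a log2 fold change of -0.96 (edgeR quasi-likelihood test, SE 0.07, adjusted p = 7.6e-12). Markers of the labelled cell type were uneven. The keratin genes KRT8 and KRT18 reached 619 and 320 CPM, but CDH1 stayed at or under 0.658 CPM, KRT19 at or under 0.172 CPM and EPCAM at or under 1.97 CPM. Of the endometrial epithelium markers, HOXA11 had 39.6 to 51.4 CPM, HOXA10 8.71 to 15.7 CPM and PAX8 1.32 to 2.98 CPM, while EMX2 stayed at or under 0.0626 CPM, and ESR1 and PGR were at or near 0. The identity of the line was not tested beyond these markers. The summed level of the 5 epithelial markers was 537 to 574 CPM in shARID1A and 852 to 930 CPM in shNC, and that of the 7 endometrial epithelium markers 55.5 to 62.1 CPM in shARID1A and 66.1 to 74.0 CPM in shNC. That of the 5 stromal markers, mostly COL1A1, was 50.0 to 53.3 CPM in shARID1A and 32.2 to 43.9 CPM in shNC. Of the immune markers, CD3E was at 0 throughout, PTPRC at most at 0.0320 CPM, CD68 at most at 0.0641 CPM and CD14 at most at 0.705 CPM. The 3 endothelial markers summed to at most 0.264 CPM in shARID1A and 0.219 CPM in shNC, with KDR at 0. The part of these marker differences in the knockdown values below was not tested. In such bulk samples, fewer cells with a transcript and less transcript per cell cannot be told apart.

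RefSeq windows of 300 bases (250 before the start to 50 after it, GRCh38.p14) were at hand for 3 of the 5 genes, and those of FOSL2 and KLF4 are shown because they hold letters of the elements through which CREB and AP-1 act. Capitals mark the AP-1 motif TGANTCA and the CRE core site TGACG, searched on both strands, so that CGTCA is the same core site on the other strand. FOSL2 spans chr2:28392608-28392907 on the + strand and KLF4 spans chr9:107489720-107490019 on the - strand.
FOSL2: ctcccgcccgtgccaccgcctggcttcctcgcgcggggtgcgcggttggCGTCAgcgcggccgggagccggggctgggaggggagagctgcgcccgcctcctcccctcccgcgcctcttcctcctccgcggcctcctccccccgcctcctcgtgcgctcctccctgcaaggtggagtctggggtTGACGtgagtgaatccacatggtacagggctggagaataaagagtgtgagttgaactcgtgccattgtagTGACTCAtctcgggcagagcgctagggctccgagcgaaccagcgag
KLF4: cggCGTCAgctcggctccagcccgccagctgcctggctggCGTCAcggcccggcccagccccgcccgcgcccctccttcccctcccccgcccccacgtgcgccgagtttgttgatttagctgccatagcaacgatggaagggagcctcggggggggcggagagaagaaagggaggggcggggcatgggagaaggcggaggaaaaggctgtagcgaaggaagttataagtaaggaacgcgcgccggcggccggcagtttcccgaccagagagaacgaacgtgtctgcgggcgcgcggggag
The FOSL2 window held 2 CRE core sites, whose first bases lie 201 and 66 bases before the start, and 1 AP-1 motif 5 bases after it. The KLF4 window held 2 CRE core sites, 247 and 210 bases before the start, no AP-1 motif, and 4 GC boxes (GGGCGG). Both NR4A1 windows held neither the CRE core site nor the AP-1 motif. Of 35116 RefSeq windows of the same length, 24.6% hold a CRE core site, 7.71% an AP-1 motif and 45.0% a GC box, each counted as at least 1 match. The whole CRE (TGACGTCA), found in 1.85% of windows, the NR4A monomer site NBRE (AAAGGTCA), in 1.22%, and the TATA motif TATAAA, in 11.5%, were in none of the 4 windows of these 3 genes. The KLF motif CACCC, in 59.9% of windows, was found in FOSL2 and NR4A1 but not in the KLF4 window. A match here is a run of letters and not a bound site.

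The orphan receptor NR4A2 showed the widest gap between the arms. NR4A2 (hg19 chr2:157181594-157189226, - strand, 3002 exonic bases) had 76.2 and 78.6 CPM with E2 plus fulvestrant, 71.1 and 77.0 CPM with E2 and 71.1 and 70.0 CPM in DMSO in shARID1A cells. In shNC cells it had 16.8 and 12.7 CPM with E2 plus fulvestrant, 15.7 and 14.0 CPM with E2 and 14.6 and 13.5 CPM in DMSO. The lowest shARID1A library, at 70.0 CPM, lay far above the highest shNC library, at 16.8 CPM. Over each arm the mean was 74.0 ± 3.67 CPM in shARID1A and 14.6 ± 1.5 CPM in shNC (SD, n = 6 each). The log2 difference was 2.39 with E2 plus fulvestrant, 2.32 with E2 and 2.32 in DMSO.

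NR4A1 differed in the same direction by less. NR4A1 (hg19 chr12:52431499-52453287, + strand, 6778 exonic bases) had 90.2 and 83.6 CPM with E2 plus fulvestrant, 88.9 and 97.5 CPM with E2 and 90.6 and 93.4 CPM in DMSO in shARID1A cells. In shNC cells the values were 56.5 and 54.7 CPM with E2 plus fulvestrant, 61.5 and 58.9 CPM with E2 and 57.1 and 52.0 CPM in DMSO. No shNC library reached the lowest shARID1A library. The log2 difference was 0.64 with E2 plus fulvestrant, 0.63 with E2 and 0.75 in DMSO. NR4A1 shares 754 exonic bases, 11.1% of its total, with an antisense gene listed under an Ensembl identifier. The counting used no strand, so reads there cannot be assigned to a strand. The antisense gene had 0 to 14 counts per library, which does not show how many reads over the shared bases were left out. The effect of this overlap on the level of NR4A1 was not tested.

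KLF4 had the second highest CPM of the 5, after FOSL2, and little spread between replicates. KLF4 (hg19 chr9:110247133-110251718, - strand, 2966 exonic bases) had 216 and 224 CPM with E2 plus fulvestrant, 212 and 223 CPM with E2 and 217 and 226 CPM in DMSO in shARID1A cells. In shNC cells it had 131 and 135 CPM with E2 plus fulvestrant, 132 and 129 CPM with E2 and 124 and 127 CPM in DMSO. The arms were separate in every treatment, with log2 differences of 0.72 with E2 plus fulvestrant, 0.73 with E2 and 0.82 in DMSO. The SD of log2 CPM within groups was 0.037 for KLF4 and 0.038 for FOSL2, and reached 0.136 for NR4A2, the most variable of the 5.

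The FOS relatives differed in direction. FOSL2 (hg19 chr2:28615315-28640179, + strand, 6192 exonic bases) had 286 and 271 CPM with E2 plus fulvestrant, 267 and 265 CPM with E2 and 269.6 and 267 CPM in DMSO in shARID1A cells. In shNC cells it had 192 and 185 CPM with E2 plus fulvestrant, 193 and 191 CPM with E2 and 197 and 185 CPM in DMSO. FOSL2 was thus higher in every shARID1A library, by 0.56 with E2 plus fulvestrant, 0.47 with E2 and 0.49 in DMSO on the log2 scale, the smallest differences of the 5 genes.

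FOSL1 (hg19 chr11:65659520-65668044, - strand, 1887 exonic bases) was the member that was lower in shARID1A. It had 44.0 and 46.6 CPM with E2 plus fulvestrant, 41.7 and 53.9 CPM with E2 and 44.5 and 46.2 CPM in DMSO in shARID1A cells. In shNC cells it had 70.0 and 69.1 CPM with E2 plus fulvestrant, 79.0 and 78.3 CPM with E2 and 77.2 and 74.8 CPM in DMSO. The highest shARID1A library, replicate 2 with E2, still lay below the lowest shNC library. The log2 difference was -0.62 with E2 plus fulvestrant, -0.71 with E2 and -0.75 in DMSO. With E2 it was -0.55 without replicate 1 of shARID1A and -0.91 without replicate 2, the widest effect of a single library on FOSL1. FOSL1P1, its pseudogene, had 0 to 4 counts per library. The counting used no option for multi-mapping reads, and how many reads matched both genes is not known.

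All 5 genes therefore had arms that did not overlap, in each of the 3 treatments. The share of all genes whose arms do not overlap was not determined, so nothing is read from that count. The shares of called genes are a different measure. Across all 17020 genes tested, edgeR called 24.2% between the arms with E2 plus fulvestrant, 27.2% with E2 and 19.2% in DMSO at an adjusted p under 0.05. Since these contrasts chose the 5 genes, nothing is read from that comparison.

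**Figure D1:**
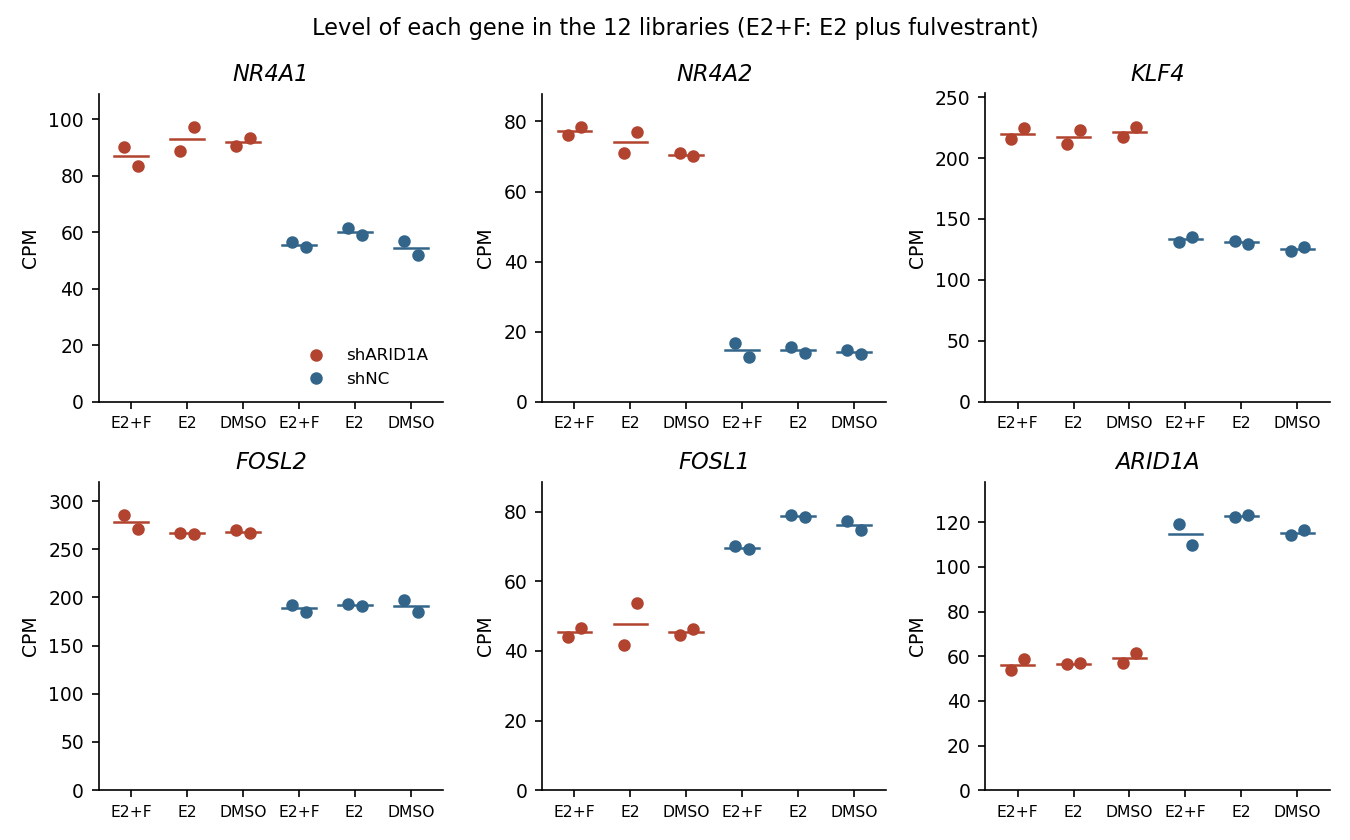
Level of each of the 5 genes and of ARID1A in CPM (vertical axis, from 0) in the 12 libraries, by treatment, with shARID1A left of shNC; points are libraries and bars are means of 2. NR4A2 lies at 70.0 to 78.6 CPM in shARID1A and 12.7 to 16.8 CPM in shNC, and FOSL1 is the one transcription factor gene shown that is lower in shARID1A.

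Comparing levels between genes needs a correction for transcript length, so RPKM, CPM per kilobase of exon, was used. KLF4 had the highest mean of the 5 in both arms, at 74.1 ± 1.89 RPKM in shARID1A and 43.8 ± 1.34 RPKM in shNC (SD, n = 6 each). FOSL2 followed in shARID1A at 43.7 ± 1.2 RPKM, and in shNC it stood at 30.8 ± 0.75 RPKM. FOSL1 had 24.5 ± 2.21 RPKM in shARID1A and 39.6 ± 2.26 RPKM in shNC, where it lay above FOSL2. NR4A2 had 24.7 ± 1.22 RPKM in shARID1A and 4.85 ± 0.50 RPKM in shNC. NR4A1 had 13.4 ± 0.68 RPKM in shARID1A and 8.38 ± 0.48 RPKM in shNC. FOSL1 and NR4A2 in shARID1A were neighbours whose ranges overlapped, at 22.1 to 28.6 and 23.3 to 26.2 RPKM, and their order there was not resolved. In shNC the same held for KLF4 and FOSL1, whose ranges of 41.8 to 45.6 and 36.6 to 41.9 RPKM touched. With the length of 1 principal transcript per gene in place of all merged exons, the order changed beyond this. NR4A1 then had 33.9 ± 1.73 RPKM in shARID1A and 21.2 ± 1.23 RPKM in shNC. In shARID1A its range of 31.2 to 36.4 RPKM overlapped that of FOSL1, 25.0 to 32.3 RPKM, and both lay above NR4A2, at 20.2 to 22.6 RPKM.

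The order within the FOSL pair differed between the arms. The ratio of FOSL2 to FOSL1 in RPKM was 1.80 ± 0.17 in shARID1A, with a range of 1.5 to 1.98, and 0.778 ± 0.040 in shNC, with a range of 0.741 to 0.836 (SD, n = 6 each). As a share of the summed RPKM of FOS, FOSB, FOSL1 and FOSL2, FOSL2 made up 57.2% in shARID1A and 38.8% in shNC, and FOSL1 31.9% in shARID1A and 49.9% in shNC. FOS made up 10.1% in shARID1A and 9.63% in shNC, and FOSB 0.858% in shARID1A and 1.69% in shNC. With principal transcript lengths the FOSL2 to FOSL1 ratio was 1.47 in shARID1A and 0.635 in shNC, which keeps that order. The ratio of NR4A2 to NR4A1 was 1.85 ± 0.15 in shARID1A and 0.579 ± 0.052 in shNC on merged exons. It depended on the length, because the merged exons of NR4A1 cover 6778 bases and its principal transcript 2678. With transcript lengths the ratio was 0.631 in shARID1A and 0.198 in shNC, so that NR4A1 stood above NR4A2 in both arms. Which NR4A gene is the more abundant in shARID1A is therefore not settled by these counts. The ratio was higher in shARID1A than in shNC with either length.

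**Figure D2:**
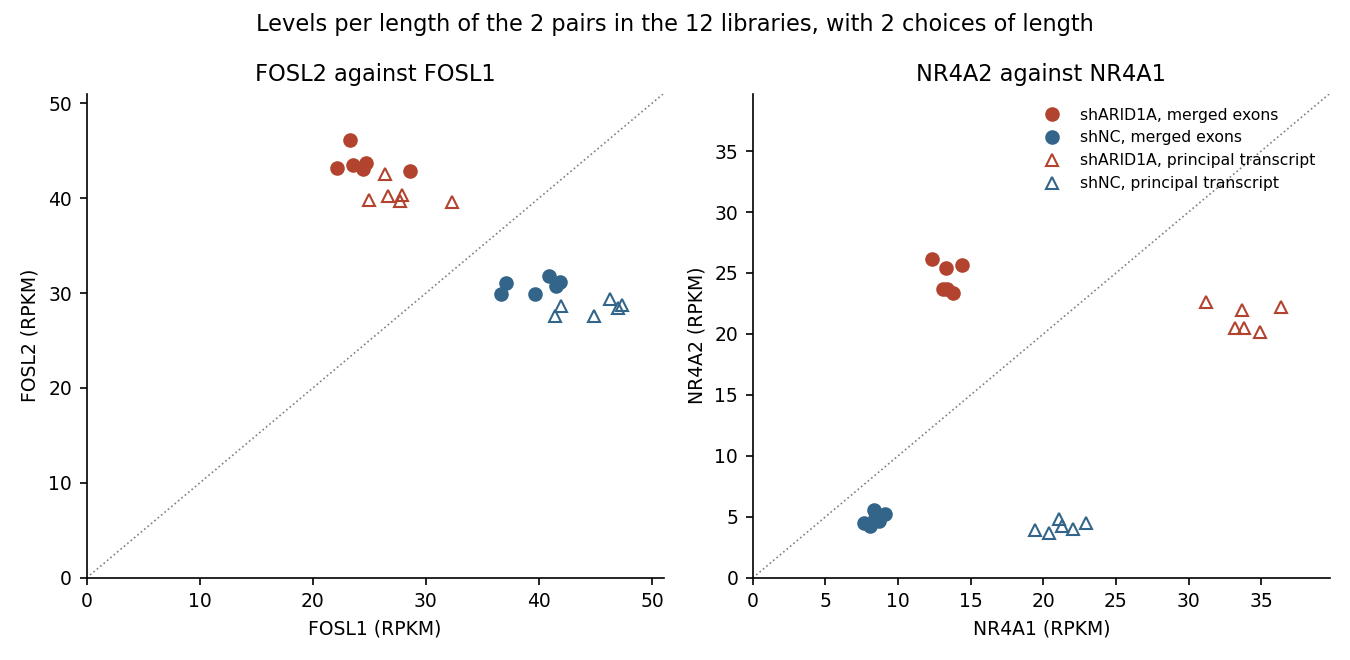
RPKM of FOSL1 and FOSL2, and of NR4A1 and NR4A2, plotted against each other for the 12 libraries in both arms; filled circles use merged exons, open triangles the principal transcript, and the dotted line is equality. The FOSL libraries of the 2 arms lie on opposite sides of equality with either length, whereas the NR4A libraries of shARID1A change sides with the length used.

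Whether 8 h of E2, alone or with fulvestrant, moved the 5 genes was tested in each arm, and no member passed. In 40 tests, 5 genes in 6 treatment contrasts and 2 differences of the effect between arms, edgeR called 0, with a smallest adjusted p of 0.627. The unadjusted p was under 0.05 in 1 test, FOSL1 for E2 plus fulvestrant against E2 in shNC. In that contrast 1324 of all 17020 genes had such a p. DESeq2 also called 0, in the 37 tests to which it gave an adjusted p. Among all 17020 genes edgeR called 0.0235% for E2 against DMSO in shARID1A and 0.00588% in shNC. For E2 plus fulvestrant against E2 it called 0.00588% in each arm. For E2 plus fulvestrant against DMSO it called 0% in shARID1A, where DESeq2 also called 0, and 0.0118% in shNC. An unadjusted p under 0.05 was found for 695 genes in that shARID1A contrast, and for 656 to 1665 genes over the 6 treatment contrasts. These counts are not calls, and nothing is read from them. For the differences between arms it called 0.0294% for E2 and 0.0118% for fulvestrant. The calls, at most 5 genes in a contrast, were FTH1P20, RPL37, EIF5AP4, RP11-543P15.1, GNG5P2, SCDP1, MRPL17, MT-ND5 and MT-ND3, named after their values were seen. ESR1, which encodes the alpha form of the estrogen receptor, had between 2 and 34 counts in a library, and PGR, a classical target of E2, had 0 counts in all 12, which at 3 counts allows at most 0.103 CPM in a library. The part of this low ESR1 level, and of the identity of the line, in the hormone results was not tested.

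The intervals give the range of hormone differences at 8 h for the 5 genes, judged by the spread between these libraries only. No earlier time was sampled, so a brief earlier response is not covered. FOSL2 had log2 fold changes between -0.02 and 0.06 over the 6 treatment contrasts, and its 95% intervals stayed within -0.14 and 0.17. KLF4 lay between -0.03 and 0.09, with intervals within -0.14 and 0.21. NR4A1 lay between -0.11 and 0.14, with intervals within -0.27 and 0.30. Its largest value was for E2 against DMSO in shNC, at 61.5 and 58.9 CPM with E2 and 57.1 and 52.0 CPM in DMSO (adjusted p = 1.00). NR4A2 lay between -0.01 and 0.13, with intervals within -0.28 and 0.35. FOSL1 lay between -0.18 and 0.09. Its value of -0.18 for E2 plus fulvestrant against E2 in shNC (SE 0.08, 95% interval -0.34 to -0.01) had an unadjusted p of 0.0369 and an adjusted p of 0.627 from edgeR. The libraries had 70.0 and 69.1 CPM with fulvestrant and 79.0 and 78.3 CPM with E2. This value is named because its unadjusted p was the smallest of the 40, and no effect is read from it. In shARID1A the same contrast of FOSL1 gave -0.09, with an interval of -0.28 to 0.10, and the difference between the arms was 0.09, with an interval of -0.16 to 0.34 (adjusted p = 1.00). Over all 40 tests the widest bounds were -0.35 and 0.38, the second equal to 1.30-fold. The bound of -0.35 belongs to NR4A2 for the difference of the E2 effect, with a log2 fold change of 0.0002 (SE 0.17). The SE was worked back from the fold change and its F statistic, which is imprecise so near 0, so that bound is approximate. A missed threshold does not show that a treatment was without effect.

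**Figure D3:**
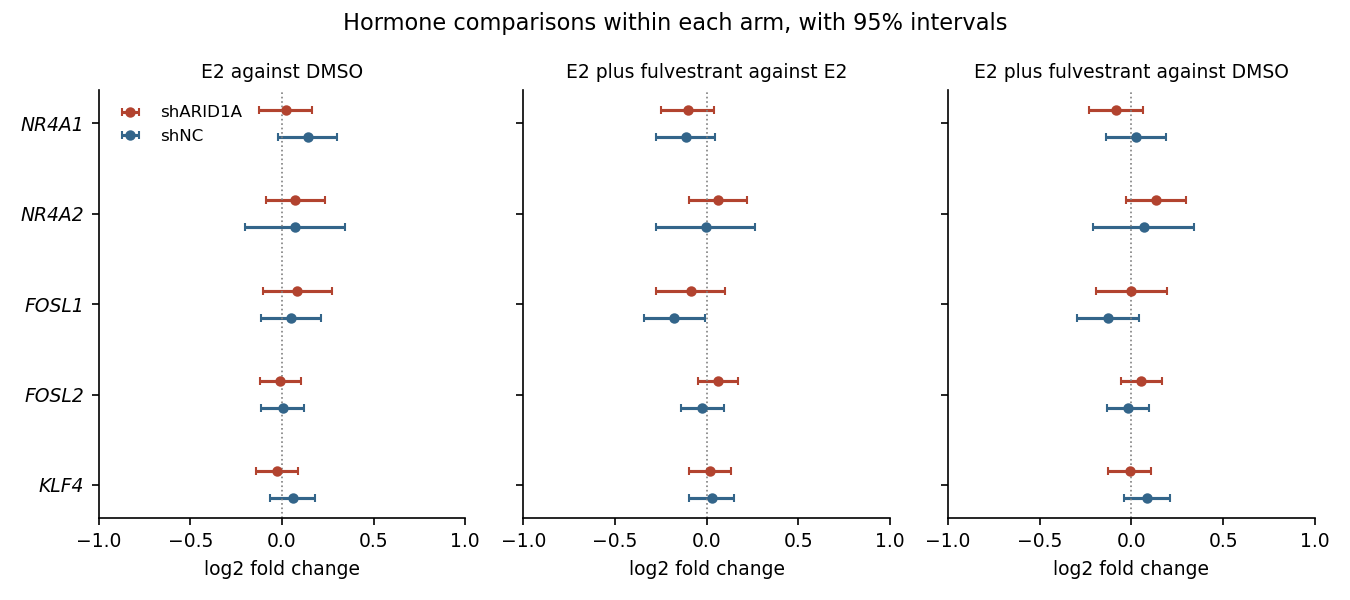
Log2 fold change (points) with 95% interval (bars) of the 5 genes in the treatment contrasts, shARID1A and shNC; the axis runs from -1 to 1 and the zero line marks no difference. All points lie between -0.18 and 0.14, and the interval of 1 of them, FOSL1 for E2 plus fulvestrant against E2 in shNC, does not cross 0.

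The wider pathway was read from gene lists of which the 5 genes are no part, written with earlier results of these data known. The lists overlap in some genes. Over all tested genes, 11.4% were called higher and 12.8% lower with E2 plus fulvestrant, 13.4% and 13.8% with E2, and 9.7% and 9.5% in DMSO, and the median log2 fold change of all genes lay between -0.03 and -0.01. No listed gene was called by edgeR in any hormone contrast.

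Other immediate early genes went both ways. Of 18 tested genes, 3 were higher and 6 lower with E2 plus fulvestrant, 5 and 4 with E2, and 4 and 5 in DMSO, with median log2 fold changes of -0.09, 0.02 and 0.03 in that order. PTGS2, the inducible cyclooxygenase, fell, with log2 fold changes of -1.78, -1.70 and -1.44 (adjusted p at most 5.52e-09). IER3, an early gene with roles in survival, fell, with values of -0.91, -0.99 and -0.99 (adjusted p at most 4.88e-07). SIK1, a kinase that restrains CREB coactivators, rose by 0.51, 0.52 and 0.46 (adjusted p at most 2.23e-05). FOS and MYC did not pass in any treatment. FOS had 16.6 to 22.5 CPM in shARID1A and 17.3 to 21.9 CPM in shNC, and MYC 198 to 216 CPM in shARID1A and 198 to 217 CPM in shNC.

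Among relatives and partners of the FOSL factors, 2, 3 and 2 of 9 tested genes were higher and 1, 1 and 1 lower with E2 plus fulvestrant, with E2 and in DMSO. JDP2, a repressor that forms dimers with JUN, rose by 0.86, 0.80 and 0.61, and JUND, a JUN protein with which both FOSL factors can pair, by 0.30, 0.50 and 0.21. FOSB fell, with values of -0.97, -1.21 and -0.91, the sign of FOSL1 and not of FOSL2. The JUN and JUNB genes were not analysed here. RXRA and RXRB, the retinoid receptors with which NR4A factors can pair, were tested as well. Both rose with E2 (0.25 and 0.24), RXRB alone with E2 plus fulvestrant (0.29), and none in DMSO, where RXRA was at 0.11 and RXRB at 0.17. In the KLF family, 2, 2 and 1 of 11 tested relatives of KLF4 were higher and 1, 2 and 1 lower. KLF13 rose by 0.28, 0.40 and 0.37 and KLF7 fell, with values of -1.09, -0.89 and -1.13. KLF15 had 0 counts in all 6 shNC libraries and 1 to 21 counts in the shARID1A libraries, and no fold is given for it.

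Genes known as outputs and feedback of ERK signalling moved one way where they were called. ERK activity, and any link of these genes to the level of FOSL1, was not tested. Of 14 tested, 0 were higher and 6 lower in each treatment, 5 of them lower in all 3, with medians of -0.42, -0.54 and -0.32 for E2 plus fulvestrant, E2 and DMSO. The PEA3 factor genes ETV4 (-0.97, -0.87 and -0.95) and ETV5 (-0.69, -0.56 and -0.85) fell. The ERK phosphatase gene DUSP5 (-0.52, -0.53 and -0.54) and the pleckstrin-domain gene PHLDA1 (-0.38, -0.64 and -0.48) fell as well. CCND1 and MYC, in the same list, did not pass in any treatment. Genes known as AP-1 targets gave 1, 1 and 0 higher and 9, 9 and 10 lower of 15 tested, 8 of them lower in all 3 treatments, with medians of -0.41, -0.62 and -0.53. The growth factor gene TGFB1 (-0.86, -0.98 and -0.67) and the cytokine gene IL6 (-2.22, -2.03 and -1.43) fell. IL6 was low throughout, at 0.371 to 1.08 CPM in shARID1A and 2.15 to 2.60 CPM in shNC. The target that rose was TIMP1, a metalloproteinase inhibitor gene, with E2 plus fulvestrant (0.19) and with E2 (0.26), named after its values were seen.

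The CREB, MEF2 and SRF regulators that act on immediate early promoters went both ways, with 6, 7 and 5 higher and 5, 6 and 4 lower of 22 tested. HDAC4, a class IIa deacetylase that represses MEF2, rose by 0.44, 0.52 and 0.59, while HDAC5, of the same class, fell, with values of -0.30, -0.32 and -0.47. The CREB coactivator gene CRTC1 fell, with values of -0.44, -0.34 and -0.36, while CRTC3, of the same family, rose by 0.39, 0.37 and 0.32. CREB1 fell with E2 plus fulvestrant (-0.53) and with E2 (-0.62), and had a value of -0.18 in DMSO (adjusted p = 0.297). CREM rose with E2 plus fulvestrant (0.27) and with E2 (0.26), and did not pass in DMSO (0.18). CRTC3 and CREM were named after their values were seen.

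**Figure D4:**
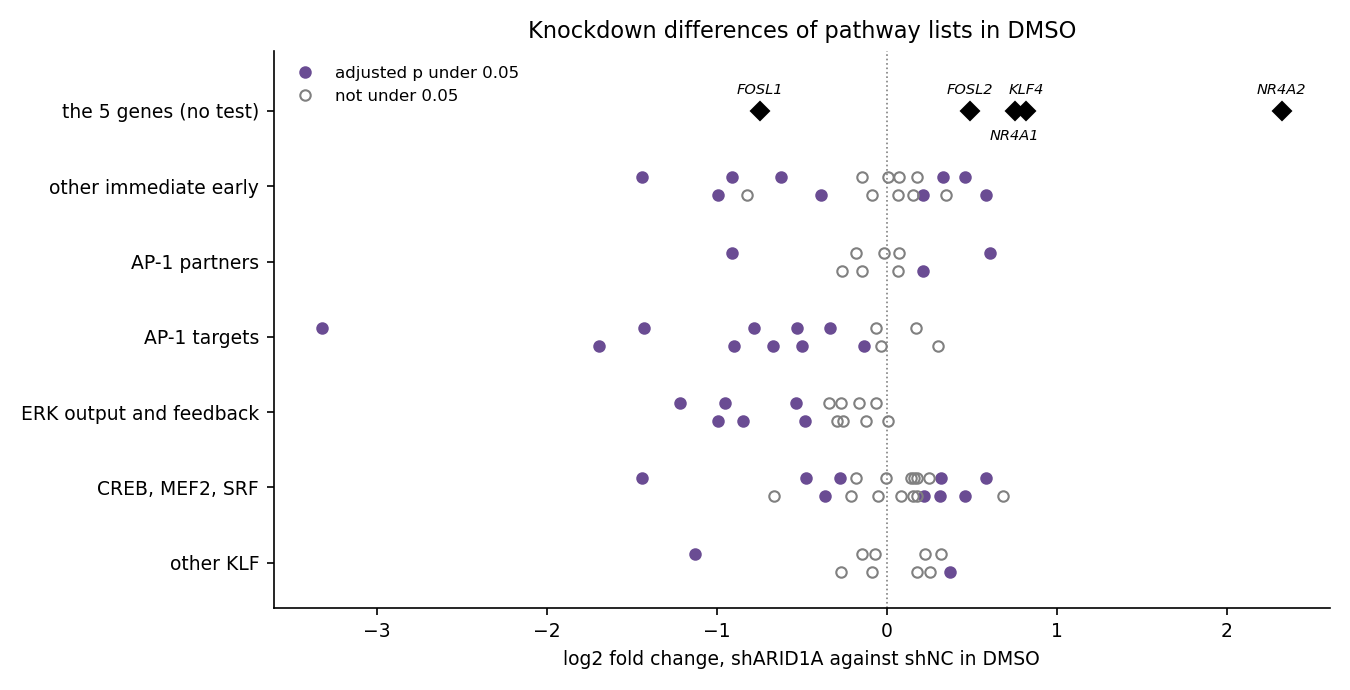
Log2 fold change of shARID1A over shNC in DMSO (horizontal axis) for the genes of each list, with the 5 chosen genes as diamonds; KLF15 and IL8, not called in DMSO, lie off the axis. The 10 called AP-1 targets lie below 0, and FOSL1 at -0.75 and NR4A2 at 2.32 mark the ends of the 5.

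Genes whose pattern was most like each member were found by Pearson's r of log2(CPM + 0.5) over the 12 libraries, among 9868 genes. Since the libraries form 2 arms, such a value mostly restates the gap between the arms and carries no p. NR4A2 was most like GALNT2 (r = 0.998), LAMB3 (0.998) and EBNA1BP2 (0.997), and NR4A1 most like DAG1 (0.995), JUP (0.993) and MFSD12 (0.992). KLF4 was most like PCID2 (0.996), PMP22 (0.995) and SH3PXD2A (0.995). FOSL2 shared LAMB3 (0.997) with NR4A2, followed by NQO1 (0.996) and CLPTM1L (0.996). FOSL1 was most like TGM2 (0.991), TUBG2 (0.987) and BAI2 (0.986). With deviations from the arm mean, the leading genes differed for each member and the values were lower: RAVER1 for NR4A1 (r = 0.969), CCDC142 for NR4A2 (0.907), RAB28 for KLF4 (0.928), CPT1A for FOSL2 (0.913) and SMIM11 for FOSL1 (0.919).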

How the data were processed

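The authors deposited raw counts of reads for each gene, without normalization. Per the submitters' processing notes, Trim Galore, cutadapt and FastQC prepared the reads, and Subread 2.0.0 placed them on hg19. Counting over exons by gene used featureCounts 2.0.0, per the file headers, with no option for strand, read pairs or multi-mapping reads. Totals were 28810351 to 38657162 counts in the 12 libraries, and 3 counts were taken as the limit that a count of 0 allows, for counting error only.

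Counts were fitted with edgeR 4.0.16 in R 4.3.3: filterByExpr by group left 17020 genes, TMM scaled the libraries, and 1 model with a mean for each of 6 groups gave 11 contrasts by the quasi-likelihood F-test, with Benjamini-Hochberg adjustment over all genes. Intervals are 95% from the fit. RPKM used merged exon lengths from the files; the principal transcript lengths of GENCODE 29 were chosen as an alternative after seeing the data. DESeq2 1.42.0, RLE factors, no filter, a replicate block and leaving out each library were the other alternatives. The fit was also run on simulated data with known changes, and how many of them it recovered is not given here.

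The 5 genes and all lists were chosen with earlier results of these data known. Named genes are the 5, ARID1A, up to 4 called genes per list and contrast with the largest change, and 3 most similar genes per member and measure; genes outside this rule were named after their values were seen. Genes of a list with no matching symbol, or removed by the filter, are not analysed here. Libraries were not paired by replicate number. The criterion for pairing needs at least 3 numbers per group, so with 2 libraries per group it could not be met. Group labels come from the deposited titles, and the fulvestrant dose, typed with letters for zeros, was read as 100 nM. A few single genes are left out of the text.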

Additional observations from a re-analysis of the deposited data

How the results depend on the processing

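The 5 genes gave no call in any hormone contrast under any of 16 alternatives (smallest adjusted p 0.361 in 637 values), and no knockdown value changed sign, with 12 of 240 moving by more than the spread between replicates. Counts of called genes were less stable. With no filter on low counts they were 37 and 12 for E2 against DMSO (shARID1A, then shNC), 41 and 19 for E2 plus fulvestrant against E2, 12 and 50 for E2 plus fulvestrant against DMSO, and 41 and 9 for the differences of the E2 and fulvestrant effects. With RLE factors, E2 against DMSO in shARID1A gave 1. DESeq2 gave 18 and 2 for E2 plus fulvestrant against E2, 17 for E2 plus fulvestrant against DMSO in shNC, and 16 and 1 for the differences. The criterion for pairing by equal replicate numbers needs at least 3 numbers per group and every correlation above 0.1. With 2 libraries per group it could not be met. A batch shared by number was not tested otherwise. Deviations correlated between -0.23 and 0.28 over 15 group pairs, 7 above 0.1, among them all pairs of the shNC groups. Of the 6 groups, 5 correlated best with their own number, a hint from the data only. With the replicate block, E2 against DMSO in shNC gave 4, E2 plus fulvestrant against DMSO in shNC 4 and the difference of the E2 effect 12.

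Leaving out 1 library in turn gave 0 to 5 and 1 to 4 calls for E2 against DMSO, 1 to 27 and 1 to 5 for E2 plus fulvestrant against E2, 0 to 4 and 0 to 10 for E2 plus fulvestrant against DMSO (shARID1A, then shNC), 2 to 17 and 1 to 4 for the differences, and, between the arms, 2310 to 4181 with E2 plus fulvestrant, 2748 to 4651 with E2 and 2005 to 3348 in DMSO. The counts between arms that moved by over 1.5 times were 2310 without replicate 1 of shARID1A and 2585 without replicate 2 of shNC (E2 plus fulvestrant), 2774 and 2748 without replicate 2 of shARID1A and of shNC (E2), and 2005 and 2027 without the same 2 (DMSO); the library left alone was taken to vary like the other groups. With principal transcript lengths the FOSL2 to FOSL1 ratio was 1.47 in shARID1A and 0.635 in shNC, and NR4A2 to NR4A1 was 0.631 in shARID1A, which turns its order round, and 0.198 in shNC; the lengths themselves set this change. The causes of the other changes were not tested.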
